A study of Arabidopsis thaliana with 6 samples.

Results

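The genes described here make or control the waterproof wax layer of the Arabidopsis thaliana shoot. They are 10 of the 26984 genes in the tables, taken by locus identifier as CER1, CER2, CER3, CER4, CER6, KCS1, MAH1, LACS2, WIN1 and MYB96, a set proposed with earlier results of these data known. Their transcripts were compared between 3 RNA-seq libraries of the hy5-215 mutant (hy5, libraries 4, 5 and 6) and 3 libraries of wild type, accession Col_0 (libraries 1, 2 and 3). Both genotypes were seedlings at 7 days of age, grown in short days and taken at zeitgeber time 20 h, counted in hours from lights on. The mutant is a single allele of HY5, a bZIP transcription factor that promotes the seedling's response to light, and whether a library pooled several seedlings or came from a separate planting is not given. The p-values therefore reflect library-to-library spread, which may be partly technical.

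Cuticular wax is built in epidermal cells from fatty acids. An elongase complex in the endoplasmic reticulum lengthens the acyl chain, with a 3-ketoacyl-CoA synthase (KCS) as the enzyme that sets chain length, and the products then enter an alkane-forming branch, which also gives secondary alcohols and ketones, or a branch that gives primary alcohols. Wax is laid over and within cutin, a polyester of shorter, hydroxylated fatty acids. Both layers limit water loss from the shoot.

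Values are FPKM (fragments per gene, divided by gene length and by the mapped total), so levels of different genes can be set side by side. Sums per library lay between 528554 and 556418 FPKM. Absolute read depth is unknown, and the spacing of the lowest values, searched only near equal depth, put the libraries at 0.935 to 1.025 times the depth of Col_0 1. HY5 itself (AT5G11260) stood at 3.04, 1.88 and 3.02 FPKM in hy5 4, 5 and 6, against 13.4, 12.99 and 13.9 FPKM in Col_0 1, 2 and 3, so its transcript was lower in every library labelled hy5. A gene was tested where it reached 1 FPKM in at least 3 libraries, on the scale of log2(FPKM + 1) with limma, and a p adjusted over all 17205 genes tested had to be under 0.05. Below, log2 fold changes are hy5 over Col_0 on that scale, which understates changes of low genes, and every adjusted p is from limma.

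The 3 most abundant of these transcripts rose in hy5 while CER1, which encodes an alkane-forming enzyme, fell 5.13-fold from an already modest level. KCS1, CER6, CER2 and the transcription factor gene MYB96 rose by 1.30 to 1.59 times, CER3 and LACS2 did not pass the test, and CER4, MAH1 and WIN1 were too low to be tested. Of the 7 tested genes, all of which reached 1 FPKM in all 6 libraries, 4 rose and 1 fell, beside 11.7% of all tested genes that rose and 11.1% that fell (22.8% in either direction). Those 5 genes also did not overlap between genotypes, a pattern shown by 40.2% of all genes tested. The median log2 fold change of the 7 tested genes was 0.38, beside a median of -0.00094 over all genes tested. These are bulk samples of seedlings. In them a change in the share of epidermal cells and a change in RNA per cell cannot be told apart, for rises or for falls.

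**Figure D1:**
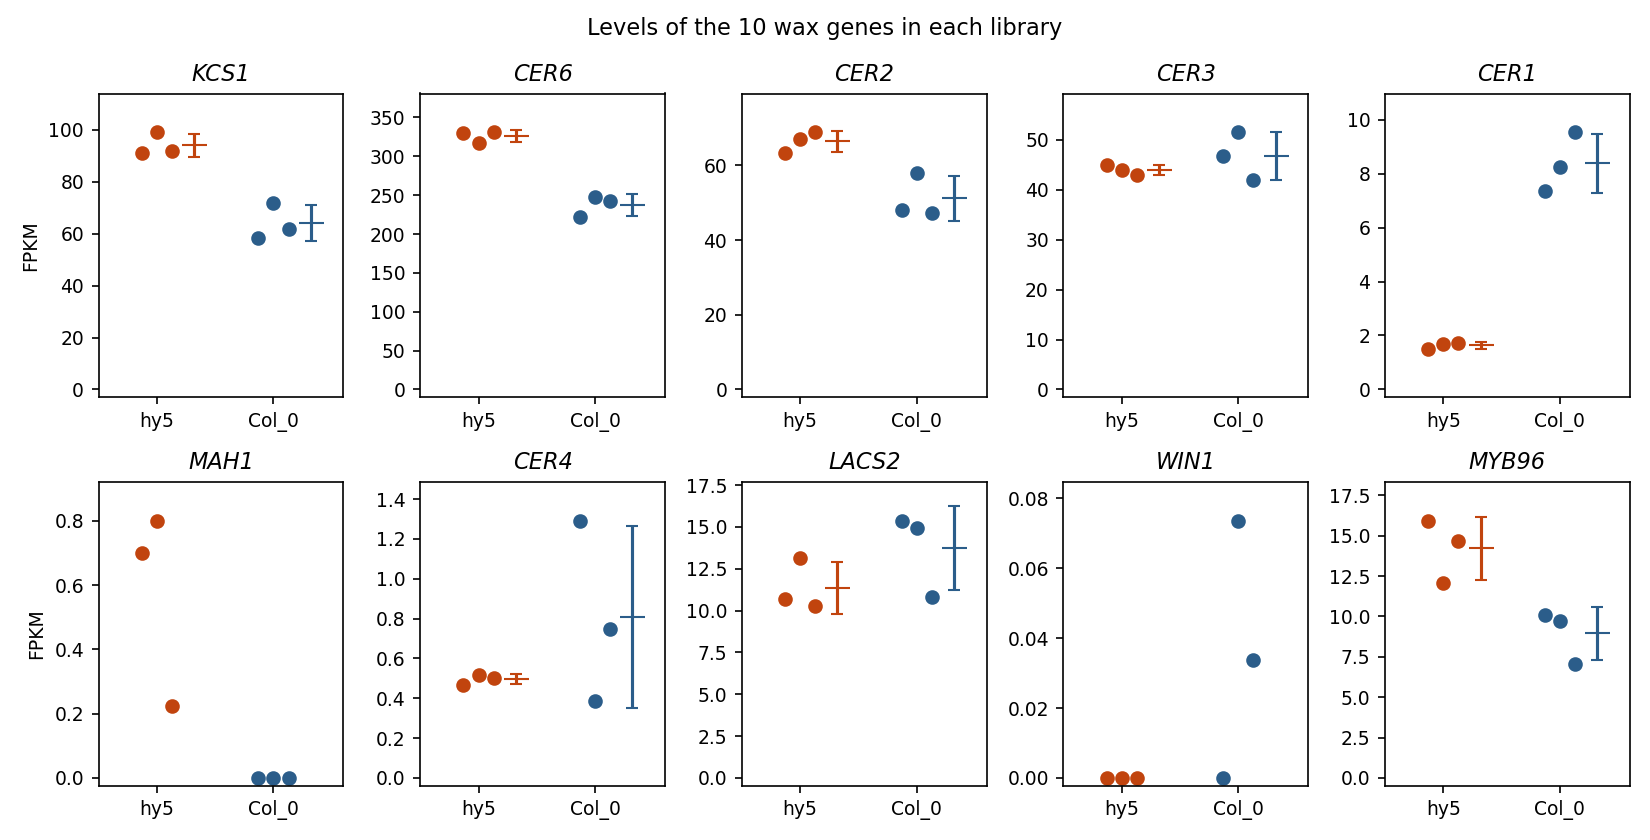
FPKM of the 10 wax genes in each library, with hy5 libraries at the left and Col_0 libraries at the right of each panel, and each panel on its own axis from 0. Points are libraries, bars are mean and SD (n = 3), left out for MAH1 and WIN1, which are listed at 0 in some libraries; CER1 lies between 1.49 and 1.74 FPKM in hy5 and between 7.35 and 9.54 FPKM in Col_0, while KCS1, CER6, CER2 and MYB96 lie higher in hy5 without overlap.

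Elongation comes before the alkane-forming and primary alcohol branches. KCS1 (AT1G01120, chromosome 1, 57164 to 59215, minus strand, TAIR10.1, 1 exon) encodes a condensing enzyme of the elongase. It had 91.2, 99.1 and 91.8 FPKM in hy5 4, 5 and 6, against 58.3, 71.7 and 61.9 FPKM in Col_0 1, 2 and 3. All hy5 libraries lay above all Col_0 libraries, and KCS1 rose 1.47-fold between means of 94.0 ± 4.39 FPKM in hy5 and 64.0 ± 6.91 FPKM in Col_0 (SD, n = 3 each; log2 fold change 0.55, SE 0.094, limma adjusted p = 0.0011).

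CER6 (AT1G68530, named KCS6 in RefSeq, chromosome 1, 25712414 to 25715024, minus strand) encodes the condensing enzyme that makes the longest chains of stem and leaf wax. Its level was 329.9, 316.8 and 331.2 FPKM in hy5 4, 5 and 6, against 221.4, 247.8 and 242.0 FPKM in Col_0 1, 2 and 3. The hy5 values lay close together and above every Col_0 value, with a rise of 1.37-fold (log2 fold change 0.46, SE 0.084, limma adjusted p = 0.0018). CER6 was the highest of the 10 genes in each genotype, above 99.3% of all genes in hy5 and 98.9% in Col_0.

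CER2 (AT4G24510, chromosome 4, 12660687 to 12662656, plus strand, 2 exons) encodes a protein related to BAHD acyltransferases that lets CER6 extend chains further. It stood at 63.4, 67.0 and 68.9 FPKM in hy5 4, 5 and 6, against 48.2, 58.1 and 47.3 FPKM in Col_0 1, 2 and 3. The groups did not overlap, and CER2 rose 1.30-fold (log2 fold change 0.38, SE 0.095, limma adjusted p = 0.013). That call was lost without Col_0 1 (limma adjusted p = 0.0501) and without hy5 6 (0.064). The locus overlaps a long non-coding RNA gene by 316 nt and the neighbouring gene ATR1 (AT4G24520) by 96 nt, both on the opposite strand, and whether counting used strand is not given. ATR1 did not pass, at 90.3 ± 2.55 FPKM in hy5 and 95.5 ± 8.87 FPKM in Col_0 (SD, n = 3 each).

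The alkane branch begins with CER3 and CER1, whose proteins act together to turn acyl-CoA into alkanes. CER3 (AT5G57800, chromosome 5, 23420184 to 23424117, plus strand, 11 exons) had 44.9, 44.0 and 43.0 FPKM in hy5 4, 5 and 6, against 46.7, 51.5 and 42.0 FPKM in Col_0 1, 2 and 3. The hy5 values fell inside the Col_0 range, and the log2 fold change of -0.08 did not pass (95% interval -0.28 to 0.12, limma adjusted p = 0.57).

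CER1 (AT1G02205, chromosome 1, 418416 to 422579, plus strand, 7 merged exons) had 1.49, 1.68 and 1.74 FPKM in hy5 4, 5 and 6, against 7.35, 8.26 and 9.54 FPKM in Col_0 1, 2 and 3. The lowest Col_0 library lay far above the highest hy5 library. CER1 fell to 1.63 ± 0.13 FPKM in hy5, against 8.38 ± 1.10 FPKM in Col_0 (SD, n = 3 each), 5.13 times lower (log2 fold change -1.83, SE 0.13, limma adjusted p = 7.3e-07). A fall of at least 1 on the log2 scale with a passing test was found for 172 of the 17205 genes tested, and among the wax genes CER1 was the gene that met it. Because of the pseudocount its log2 fold change was -2.28 with 0.1 added and -1.01 with 5 added, and it passed in each of the 13 alternative fits. The most similar other transcript, of its relative CER1-LIKE1 (AT1G02190), was 64.0% identical over 700 nt. For the 10 genes, no reported alignment to a transcript from elsewhere in the annotation was 95% identical over at least 50 nt. Identity was taken over whole alignments, so a short stretch of higher identity inside a longer alignment could be missed.

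The level of each partner relative to the other was computed in every library. The FPKM ratio of CER1 to CER3 was 0.033, 0.038 and 0.040 in hy5 4, 5 and 6, against 0.16, 0.16 and 0.23 in Col_0 1, 2 and 3. CER3 thus stood 24.8 to 30.1 times above CER1 in hy5 libraries and 4.40 to 6.35 times above it in Col_0 libraries, a difference of -2.27 in the log2 ratio (exact permutation test, two-sided, p = 0.10, the smallest that 3 against 3 libraries allow). The ratio of CER6 to CER2 was 5.21, 4.72 and 4.80 in hy5 4, 5 and 6, against 4.59, 4.27 and 5.12 in Col_0 1, 2 and 3. The groups overlapped, with a difference of 0.079 in the log2 ratio (exact permutation test, two-sided, p = 0.40). With the ratio of CER1 to CER4 below, 3 were compared, and the Benjamini-Hochberg adjusted value was 0.15 for each with a raw p of 0.10 and 0.40 for CER6 over CER2 (exact permutation tests).

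**Figure D2:**
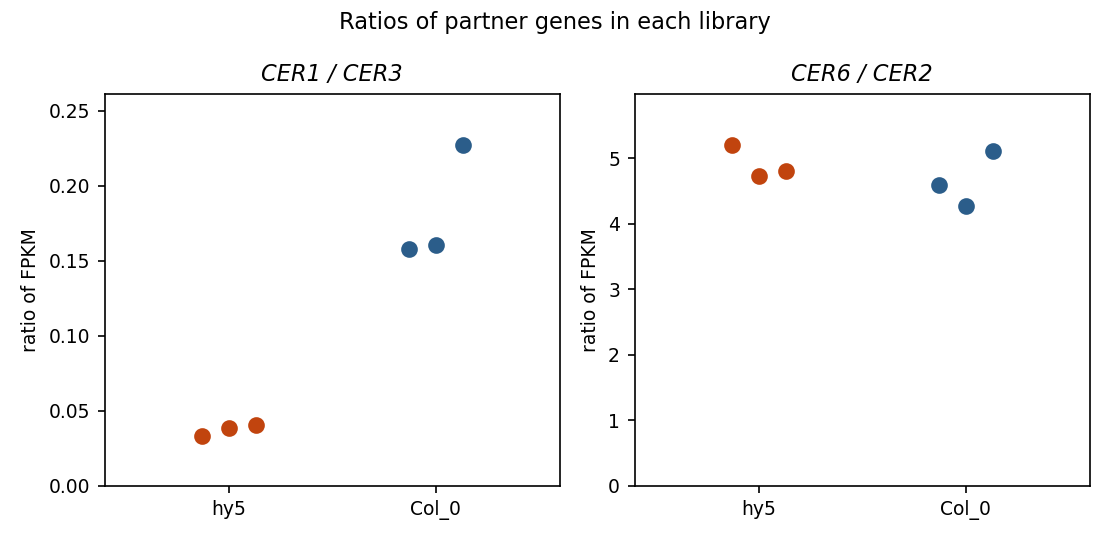
Ratio of FPKM of CER1 to CER3 (left) and of CER6 to CER2 (right) in each hy5 and Col_0 library, on linear axes from 0, 1 point per library. The CER1 to CER3 ratio is 0.033 to 0.040 in hy5 and 0.16 to 0.23 in Col_0, and the CER6 to CER2 ratios of the genotypes overlap.

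Downstream genes were at the limit of detection. MAH1 (AT1G57750, CYP96A15 in RefSeq, chromosome 1, 21383812 to 21385709, minus strand) encodes the cytochrome P450 that hydroxylates alkanes in stem wax. It was listed at 0.70, 0.80 and 0.22 FPKM in hy5 4, 5 and 6 and at 0 in all 3 Col_0 libraries. It was below the filter and not tested. With no filter on low values its limma adjusted p was 0.012, but MAH1 entered that fit through its hy5 values alone. CER4 (AT4G33790, chromosome 4, 16204096 to 16207956, minus strand) encodes the reductase that makes primary alcohols. Its values were 0.47, 0.52 and 0.50 FPKM in hy5 4, 5 and 6, against 1.29, 0.39 and 0.75 FPKM in Col_0 1, 2 and 3, with overlap. The FPKM ratio of CER1 to CER4 was 3.20 to 3.45 in hy5 libraries and 5.69 to 21.3 in Col_0 libraries (exact permutation test, two-sided, p = 0.10), a ratio that rests on the scattered CER4 values.

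LACS2 (AT1G49430, chromosome 1, 18290942 to 18295905, plus strand, 19 merged exons) encodes a long-chain acyl-CoA synthetase that feeds cutin synthesis more than wax. It had 10.7, 13.1 and 10.2 FPKM in hy5 4, 5 and 6, against 15.4, 15.0 and 10.8 FPKM in Col_0 1, 2 and 3. Col_0 3 lay among the hy5 libraries, and the log2 fold change of -0.24 did not pass (95% interval -0.54 to 0.051, limma adjusted p = 0.22), though it passed without Col_0 3 (log2 fold change -0.39, limma adjusted p = 0.029).

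Of the regulators, MYB96 (AT5G62470, chromosome 5, 25078991 to 25081141, minus strand, 3 merged exons) is an R2R3-MYB activator of wax genes under drought and abscisic acid. It had 15.9, 12.1 and 14.6 FPKM in hy5 4, 5 and 6, against 10.102, 9.70 and 7.04 FPKM in Col_0 1, 2 and 3. The groups did not overlap, and MYB96 rose 1.59-fold (log2 fold change 0.62, SE 0.14, limma adjusted p = 0.0066). WIN1 (AT1G15360, SHN1 in RefSeq, chromosome 1, 5283268 to 5284736, plus strand) is an AP2/ERF factor that activates cutin and wax genes when overexpressed. It was listed at 0 in all 3 hy5 libraries and at 0, 0.074 and 0.034 FPKM in Col_0 1, 2 and 3, and was not tested.

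**Figure D3:**
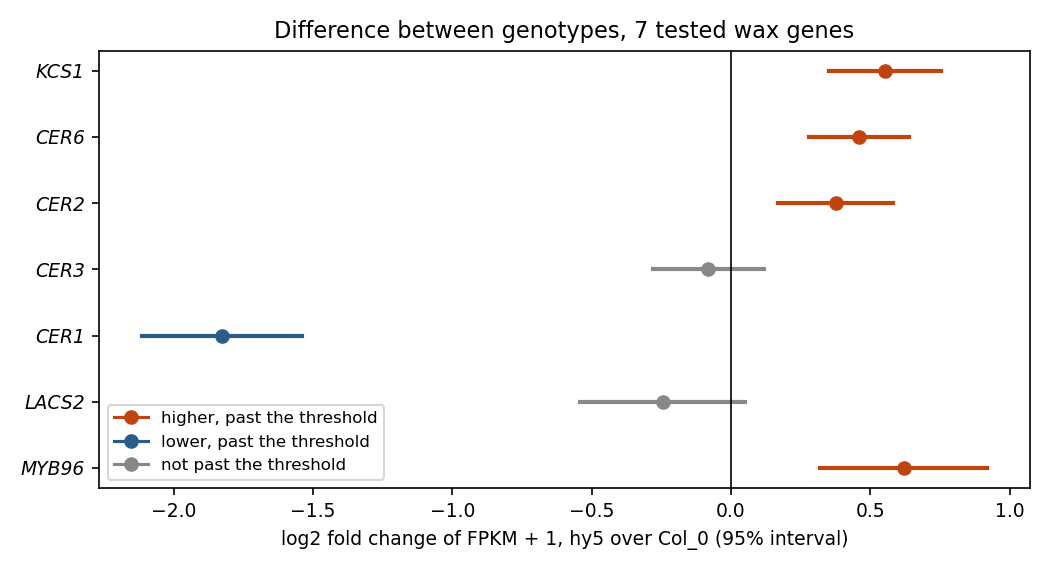
Log2 fold change of FPKM + 1, hy5 over Col_0, with the 95% interval from limma for the 7 tested wax genes, ordered by step from elongation to regulation. KCS1, CER6, CER2 and MYB96 lie to the right of 0, CER1 at -1.83 to the left, and the intervals of CER3 and LACS2 include 0.

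In order of level, hy5 ran from CER6 through KCS1, CER2 and CER3 to MYB96, LACS2, CER1, MAH1 and CER4, with WIN1 at 0. The ranges of MYB96 and LACS2 overlapped, as did those of MAH1 and CER4. In Col_0 the order was CER6, KCS1, CER2, CER3, LACS2, MYB96, CER1, CER4, WIN1 and MAH1, with overlap between CER2 and CER3, MYB96 and CER1, and WIN1 and MAH1. CER1 therefore stood at the level of MYB96 in Col_0 and far below it in hy5. By mean level it lay above 41.8% of all genes in hy5 and 66.8% in Col_0. Among the 7 tested genes the coefficient of variation between libraries was 2.13% to 13.7% in hy5 and 5.85% to 18.6% in Col_0, and each gene varied more in Col_0. Col_0 2 was the highest Col_0 library for 4 of them (CER2, CER3, CER6 and KCS1), and Col_0 3 the lowest for 4 (CER2, CER3, LACS2 and MYB96) but the highest for CER1.

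The sequences just before the annotated gene starts are shown for the 5 genes past the threshold, because HY5 binds DNA elements built on an ACGT core and the genes moved in opposite directions. Each is 250 bases upstream of the most upstream annotated start, 5′ to 3′ on the gene's strand, from RefSeq TAIR10.1, with ACGT in capitals. CER1, at chr1:418166-418415 (plus), fell:
CER1: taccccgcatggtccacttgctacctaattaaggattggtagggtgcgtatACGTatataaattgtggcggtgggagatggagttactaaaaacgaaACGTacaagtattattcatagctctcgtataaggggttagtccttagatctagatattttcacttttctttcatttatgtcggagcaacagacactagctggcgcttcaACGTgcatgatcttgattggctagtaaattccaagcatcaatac
The 4 genes that rose lie at chr1:25715025-25715274 (minus) for CER6, chr1:59216-59465 (minus) for KCS1, chr4:12660437-12660686 (plus) for CER2 and chr5:25081142-25081391 (minus) for MYB96:
CER6: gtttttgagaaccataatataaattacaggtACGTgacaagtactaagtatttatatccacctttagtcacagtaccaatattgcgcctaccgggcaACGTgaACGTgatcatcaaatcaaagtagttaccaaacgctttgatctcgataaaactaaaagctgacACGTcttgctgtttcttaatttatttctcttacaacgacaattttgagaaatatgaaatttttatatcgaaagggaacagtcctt
KCS1: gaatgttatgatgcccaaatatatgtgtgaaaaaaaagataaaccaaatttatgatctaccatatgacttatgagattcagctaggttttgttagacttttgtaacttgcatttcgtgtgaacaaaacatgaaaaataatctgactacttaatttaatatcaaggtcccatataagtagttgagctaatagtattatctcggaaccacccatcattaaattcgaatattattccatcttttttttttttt
CER2: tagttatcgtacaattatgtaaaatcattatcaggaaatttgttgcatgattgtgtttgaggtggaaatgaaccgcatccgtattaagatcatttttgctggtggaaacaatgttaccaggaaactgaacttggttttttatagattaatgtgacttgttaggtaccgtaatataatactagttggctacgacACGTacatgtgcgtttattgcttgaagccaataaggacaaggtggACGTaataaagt
MYB96: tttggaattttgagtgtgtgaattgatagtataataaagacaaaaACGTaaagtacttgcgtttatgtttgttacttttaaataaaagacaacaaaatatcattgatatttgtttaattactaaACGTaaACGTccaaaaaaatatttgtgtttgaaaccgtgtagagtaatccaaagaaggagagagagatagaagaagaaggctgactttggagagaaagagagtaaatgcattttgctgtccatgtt
The ACGT core, which reads the same on both strands, occurred 3 times before CER1, 4 times before CER6, 2 times before CER2 and 3 times before MYB96, and its letters are not in the KCS1 window. Over all 10 genes, 9 windows held it, and 44.0% of the 26983 windows of the same length for genes in the tables held it. The longer G-box CACGTG, which contains the core, was in 0 of the 10 windows and in 6.47% of all. The C-box GACGTC, which contains it too, was in 0 of the 10 and in 2.25% of all, and the GCC-box GCCGCC, the usual element of AP2/ERF factors, in 0 of the 10 and in 1.87% of all, on either strand. Other longer elements that contain the core were not counted. These matches describe letters and are not binding data.

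Other genes of wax synthesis and export mostly did not pass. Of 20 listed, 18 were tested, 0 rose and 5 fell, with a median log2 fold change of -0.21. The 27.8% past the threshold all fell, beside 11.1% of all genes tested that fell and 11.7% that rose (22.8% in either direction). ACC1, the cytosolic acetyl-CoA carboxylase that supplies malonyl-CoA to the elongase, fell to 26.4 ± 1.33 FPKM in hy5, against 45.1 ± 6.17 FPKM in Col_0 (SD, n = 3 each; log2 fold change -0.74, limma adjusted p = 0.00029). LACS1, also called CER8, which activates wax fatty acids, fell to 8.77 ± 0.46 FPKM in hy5, against 16.6 ± 3.82 FPKM in Col_0 (log2 fold change -0.82, limma adjusted p = 0.0011). The dehydratase gene PAS2 (log2 fold change -0.30, limma adjusted p = 0.023) and the synthases KCS5 (-0.29, 0.032) and KCS20 (-0.27, 0.045) fell by less. The list held 2 to 6 calls when single libraries were left out, with 2 without hy5 4 and 2 without hy5 6, 3 without Col_0 2 (of which 1 rose), and calls of PAS2, KCS5 and KCS20 among those lost. KCS20 also lost its call with no filter on low values (limma adjusted p = 0.064). The same held when libraries were rescaled by median ratio (0.083) or upper quartile (0.064). The other 13 tested genes of the list, among them genes of the exporters and lipid transfer proteins, had log2 fold changes from -0.29 to 0.20.

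CER6 and KCS1 belong to a family of 21 KCS genes, of which 15 were tested. Of these 6 rose and 2 fell, with a median log2 fold change of 0.20. Without CER6 and KCS1, 4 of 13 rose and 2 fell, with a median of 0.12, beside 11.7% of all genes tested that rose and 11.1% that fell. In each fit that left out a library 6 of the 15 rose, and the number that fell was 0 without Col_0 2, hy5 4 or hy5 6. Beside CER6 and KCS1, KCS3 rose to 50.03 ± 1.77 FPKM in hy5, against 25.6 ± 2.60 FPKM in Col_0 (SD, n = 3 each; log2 fold change 0.94, limma adjusted p = 1.3e-05). KCS8 (log2 fold change 0.68, limma adjusted p = 0.00017), KCS12 (0.73, 0.0020) and KCS19 (0.41, 0.0075) also rose, and those that fell were KCS5 and KCS20 from the list above. KCS8 shares a stretch of 238 nt at 95% identity or more with AT2G15120, so part of its reads is uncertain. KCS13, which did not pass, and KCS14, below the filter, are 97.5% identical over 1424 aligned nt, so their levels are uncertain too. The FPKM of the whole family summed to 1122, 1141 and 1107 in hy5 4, 5 and 6, against 911.2, 1031 and 937.6 in Col_0 1, 2 and 3. CER6 made up 29.4%, 27.8% and 29.9% of that sum in hy5 4, 5 and 6, against 24.3%, 24.0% and 25.8% in Col_0 1, 2 and 3. Neither the sums nor the shares overlapped between genotypes. The sum without CER6 and KCS1 did overlap, at 683.6 to 724.8 FPKM in hy5 libraries and 631.5 to 711.9 FPKM in Col_0 libraries.

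Most other regulators of wax and cutin did not pass. Of 19 listed, 18 were in the tables and 14 were tested, of which 2 rose and 3 fell (median log2 fold change -0.06), beside 11.7% of all genes tested that rose and 11.1% that fell. DEWAX2 (AT5G07580), an ERF factor that represses wax genes, rose to 38.8 ± 6.78 FPKM in hy5, against 26.2 ± 0.35 FPKM in Col_0 (SD, n = 3 each; log2 fold change 0.54, limma adjusted p = 0.0046). MYB30, an activator of very-long-chain fatty acid synthesis, rose to 20.8 ± 0.39 FPKM in hy5, against 17.1 ± 0.50 FPKM in Col_0 (log2 fold change 0.27, limma adjusted p = 0.047), a call lost in 5 of the 6 fits that left out a library. MYB106, a MIXTA-like factor of trichomes and cuticle, stood at 0.46, 0.65 and 0.20 FPKM in hy5 4, 5 and 6, against 2.24, 2.12 and 1.69 FPKM in Col_0 1, 2 and 3 (log2 fold change -1.08, limma adjusted p = 0.00037), and entered the test through its Col_0 values alone. RST1 (log2 fold change -0.49, limma adjusted p = 0.0091), needed for normal wax load, and the zinc finger gene NFXL2 (-0.45, 0.017) also fell. NFXL2 lost its call without Col_0 2 (0.075), hy5 4 (0.066) or hy5 6 (0.080). It shares a stretch of 227 nt at 95% identity or more with AT5G05653, so part of its reads is uncertain. The count was 2 without Col_0 2, and 3 without Col_0 1, hy5 4 or hy5 6. MYB106 was not tested where a Col_0 library was left out.

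Most listed cutin genes fell in hy5. All 14 listed genes of cutin synthesis and assembly were tested, 9 fell and 1 rose, with a median log2 fold change of -0.79, beside 11.1% of all genes tested that fell and 11.7% that rose. CUS2 (AT5G33370), a GDSL enzyme that polymerises cutin, had 0.70, 0.45 and 0.34 FPKM in hy5 4, 5 and 6, against 15.7, 15.0 and 15.9 FPKM in Col_0 1, 2 and 3. Its hy5 level was 31.3 times lower (log2 fold change -3.47, SE 0.13, limma adjusted p = 6e-10). DCR (PEL3 in RefSeq), an acyltransferase required for cutin, had 7.42, 12.4 and 7.51 FPKM in hy5 4, 5 and 6, against 39.3, 36.8 and 37.9 FPKM in Col_0 1, 2 and 3 (log2 fold change -1.98, limma adjusted p = 7.1e-06). The in-chain hydroxylase gene CYP77A6 fell to 1.52 ± 0.16 FPKM in hy5, against 4.80 ± 0.71 FPKM in Col_0, and CUS1 (LTL1 in RefSeq), another GDSL gene, to 19.3 ± 3.07 FPKM in hy5, against 38.0 ± 2.35 FPKM in Col_0 (SD, n = 3 each; limma adjusted p = 6.7e-05 and 6.2e-05). The others that fell were the acyltransferase gene GPAT6, CYP77A4, HTH, CYP86A4 and the exporter gene ABCG32, by 0.39 (ABCG32) to 1.21 (GPAT6) on the log2 scale. CYP86A8, GPAT4, GPAT8 and BDG1 did not pass. CYP86A2, a hydroxylase gene, rose (log2 fold change 0.37, limma adjusted p = 0.012), a call lost without Col_0 1 (0.058), and that of ABCG32 was lost without hy5 6 (0.055). CUS2 and CYP77A4 entered the test through Col_0 alone, and under a stricter filter at 5 FPKM, 10 were tested, 5 fell and 1 rose.

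**Figure D4:**
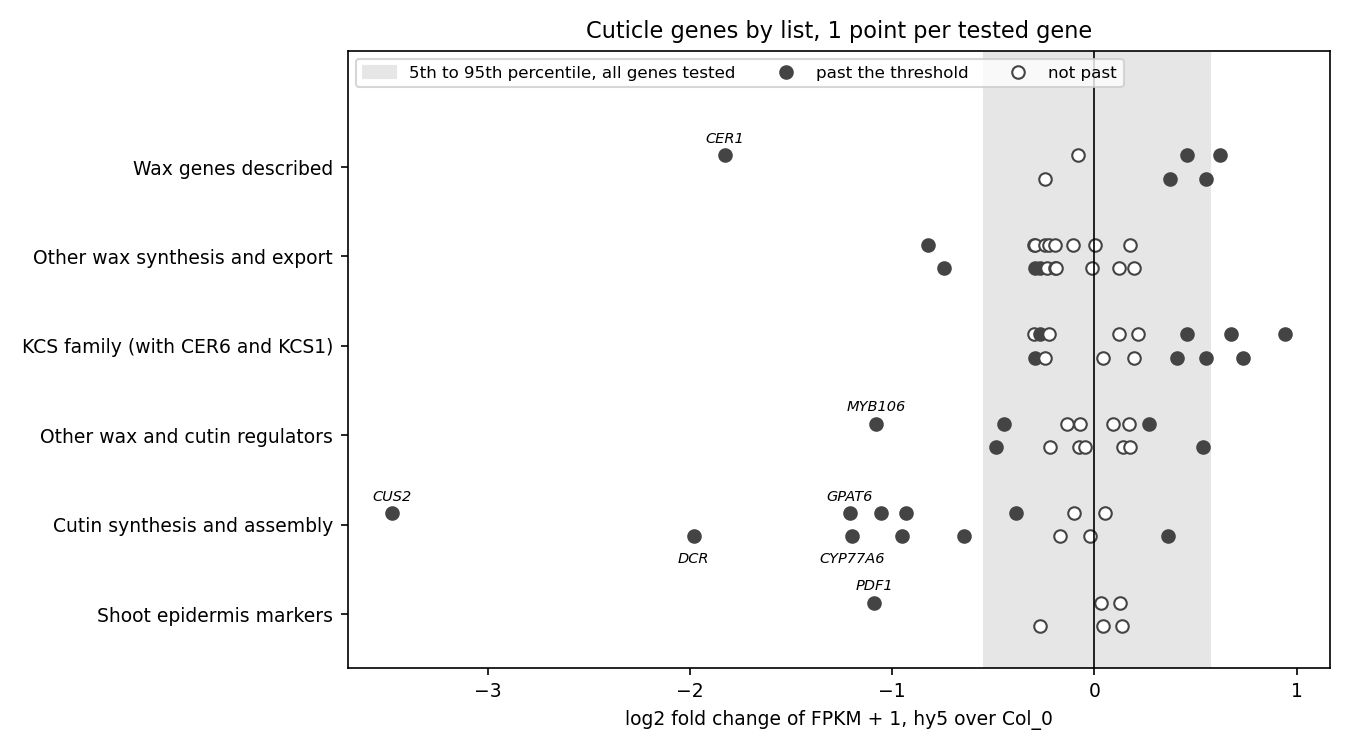
Log2 fold change of FPKM + 1, hy5 over Col_0, of each tested gene in 6 lists, with filled points past the threshold and the grey band from the 5th to the 95th percentile of all genes tested (-0.54 to 0.57). CER1, at -1.83, is the wax gene to the left of -1, where cutin genes such as CUS2 (-3.47) and DCR (-1.98) also lie.

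Among the 46 tested genes of these wax, cutin and regulator lists, the pattern most like that of CER1 over the 6 libraries was that of CUS2 (Pearson r = 0.989 on log2 values) and CYP77A6 (0.981). For CER6 it was CYP86A2 (0.960) and MYB30 (0.956), for KCS1 the same genes (0.948 and 0.933), for CER2 MYB30 (0.922) and SAGL1 (0.884), and for MYB96 MYB30 (0.932) and DEWAX2 (0.865). The libraries fall into 2 genotypes, so these values largely restate the difference between genotypes and are a description.

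Markers of the wax-making and other cell types give the setting. Beside the calls below, 11.7% of all genes tested rose and 11.1% fell (22.8% in either direction). Of 6 shoot epidermis markers, PDF1 fell (log2 fold change -1.09, limma adjusted p = 4.2e-05), and ATML1 (0.14), PDF2 (0.13), FDH (0.043), ACR4 (0.031) and LTP1 (-0.27) did not pass. Their summed level was 1286 to 1578 FPKM in hy5 libraries and 1612 to 1813 FPKM in Col_0 libraries. LTP1, which overlapped between genotypes, is the highest gene in that sum, with means of 974.3 FPKM in hy5 and 1169 FPKM in Col_0. Of 4 trichome markers, the 2 tested, GL2 (-0.97) and TRY (-0.86), fell, and the list summed to 2.04 to 2.92 FPKM in hy5 and 7.16 to 7.79 FPKM in Col_0. Of 7 root endodermis and suberin markers, FAR1 (2.05) and CASP1 (0.96) rose and FAR4 (-0.80) and CYP86A1 (-0.77) fell, with a median of -0.27 over the list. Its sum, in which CASP1 is the highest gene, was 98.9 to 110.8 FPKM in hy5 and 55.6 to 86.7 FPKM in Col_0. The 4 seed markers, OLEO1 (-2.43), SESA1 (-3.73), SESA3 (-4.06) and EM6 (-0.93), fell, with sums of 1.16 to 4.38 FPKM in hy5 and 18.4 to 95.4 FPKM in Col_0, with SESA1 and SESA3 at 0 in hy5 6. SESA1 and SESA3 entered the test through Col_0 alone. Without any 1 of the Col_0 libraries, OLEO1 and EM6 were the 2 seed markers tested, and both passed. All 4 were tested without hy5 4, 5 or 6, and 1, 2 and 1 of them passed. CER1 and 9 cutin genes fell in hy5, as did PDF1, GL2, TRY, FAR4, CYP86A1 and the seed markers. FAR1 and CASP1 rose, and ATML1, PDF2, FDH, ACR4, LTP1 and the remaining root markers did not pass. The part of these markers in the results was not tested.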

How the data were processed

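RNA extraction used RNAiso Plus, per the labels, and sequencing an Illumina HiSeq instrument, per the series' design text. The authors deposited FPKM per gene and library, per the file headers. Cufflinks, TopHat, Bowtie2, HISAT2 2.2.1.0, Trimmomatic 0.36, DESeq 1.18.0 and the TAIR10 build are listed, with no roles, per the submitters' processing notes. Annotation, strand and multi-mapping rules were not found in the labels or headers. FPKM carries no read count, so the precision of low genes is unknown.

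Groups came from sample titles. The design allowed for counts or FPKM, and the FPKM route was used: log2(FPKM + 1), a filter of 1 FPKM in 3 or more libraries, limma 3.58.1 in R 4.3.3 with genotype as its term (trend and robust options on), Benjamini-Hochberg over 17205 genes, threshold 0.05. The fit was tested on simulated data. Ratios used exact permutation in SciPy 1.17.1. Gene models, symbols and upstream windows are from RefSeq TAIR10.1, and copies were searched with blastn 2.17.0. Members and lists were chosen with earlier results of these data known. Named genes are HY5, all 10 members, up to 4 called genes per list with the smallest p, those completing a count of 5 or fewer, and the 2 listed genes most correlated with each called member; other genes were named after their values were seen. DEWAX is not analysed here. The number of genes with equal values above 0 in any pair of libraries was 0.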

Additional observations from a re-analysis of the deposited data

How the results depend on the processing

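The direction of each of the 7 tested wax genes was the same in all 13 alternatives, which were pseudocounts of 0.1 and 5, a filter at 5 FPKM or none, median-ratio, upper-quartile and quantile rescaling, and leaving out each library. CER1, CER6, KCS1 and MYB96 passed in all 13. The number of wax genes past the threshold was 4 to 6 with a library left out. It was 6 with no filter, where MAH1 entered through its hy5 values alone. Over all genes the count was 2028 to 4309 with a library left out, against 3915, with 2201 without hy5 4 and 2028 without hy5 6. The list counts were 2 to 6 for wax synthesis and export, 2 to 4 for regulators and 7 to 10 for cutin with a library left out, and 6 for cutin with a filter at 5 FPKM, where fewer genes are tested. Fewer were also tested where a Col_0 library was left out, at 12 cutin genes and 13 regulators. There CUS2, CYP77A4 and MYB106 were below the filter, so part of the lower counts is genes not tested. The log2 ratio differences were -2.36 to -2.10 for CER1 over CER3, -2.32 to -1.37 for CER1 over CER4 and 0.017 to 0.15 for CER6 over CER2. Of the epidermis markers, ACR4 changed sign without Col_0 3 (-0.054) and FDH without Col_0 3 (-0.021) or hy5 5 (-0.0093), both highest without Col_0 2 (0.12 and 0.13), and the cause was not tested; LTP1 passed with quantile normalization (limma adjusted p = 0.013) and without hy5 5 (0.011). The planned ratio of MAH1 to CER1 is not given, since MAH1 is listed at 0 in Col_0 and a pseudocount would set it. Counting the 50 bases after the start changed no number of wax genes with a motif. No paired analysis was possible because the library numbers, 1 to 3 and 4 to 6, are not shared between genotypes. The precision of genes below 1 FPKM is not known without read counts.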

Other observations

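Several cuticle genes lay below the expression filter and enter no test. SHN2, a close relative of WIN1, was listed at 0.047, 0.048 and 0 FPKM in hy5 4, 5 and 6, against 0.68, 0.62 and 0.80 FPKM in Col_0 1, 2 and 3. MYB41, a MYB factor of suberin and cuticle, had 0.43, 0.11 and 0.22 FPKM in hy5 4, 5 and 6, against 0.77, 0.79 and 0.79 FPKM in Col_0 1, 2 and 3. WSD1, the wax ester synthase gene, had 0.55, 0.27 and 0.13 FPKM in hy5 4, 5 and 6, against 0.10, 0.036 and 0.033 FPKM in Col_0 1, 2 and 3. The choice of these 3 followed their values. Their genotypes did not overlap. The 40.2% of genes with that pattern covers tested genes only, and no such share was computed for genes below the filter. Of the other listed genes below the filter, SHN3, SPL9, KCS14 and KCS17 overlapped. The trichome markers GL1 and GL3, also below it, were lower in hy5 without overlap. GL1 had 0.29, 0.042 and 0.083 FPKM in hy5 4, 5 and 6, against 1.73, 2.06 and 0.58 FPKM in Col_0 1, 2 and 3. GL3 had 0.34, 0.23 and 0.21 FPKM in hy5 4, 5 and 6, against 0.69, 0.39 and 0.42 FPKM in Col_0 1, 2 and 3. CER1-LIKE1, a relative of CER1, had 0.014 to 0.057 FPKM in hy5 libraries and 0.044 to 0.14 FPKM in Col_0 libraries, with overlap.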
